A study of Drosophila melanogaster with 5 samples.

Results

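Aminoacyl-tRNA synthetases are the enzymes that join each amino acid to its tRNA, the step that fixes the meaning of the genetic code. Animal cells use a cytoplasmic set, which serves the translation of nuclear genes, and a mitochondrial set, which serves the few genes of mitochondrial DNA, and most enzymes of either set have a nuclear gene of their own. The enzymes belong to class I or class II, which differ in the fold of the catalytic domain, and in mammals several of the cytoplasmic ones are held together with scaffold proteins in a multisynthetase complex. In mammals the transcription factor ATF4 raises many cytoplasmic synthetase genes when amino acids run short, and mutations in the glycyl and tyrosyl enzymes cause an inherited neuropathy.

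The genes were chosen by name, by a rule that used no expression value but was set with earlier results of these data known. They are those whose only symbol in the array's annotation was an amino acid code followed by RS or RS-m, or GluProRS. This gave 32 probe sets of 30 genes, out of 11983 genes with a probe set of their own, and TrpRS was the 1 gene with several probe sets. Of the 30 genes, 16 encode cytoplasmic enzymes and 14, with the suffix -m, mitochondrial ones. GlnRS, GlyRS, HisRS, LysRS and ThrRS have no counterpart with that suffix in the table of current symbols, and in humans the glycyl and lysyl enzymes of both compartments come from 1 gene each. The cytoplasmic enzymes for aspartate and methionine and the mitochondrial one for alanine had no probe set named here and were not analysed here.

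Transcripts of larval cephalic complexes were measured with Affymetrix Drosophila 2.0 arrays. These are the brain lobes with the attached eye-antennal discs, taken in the third instar. There were 3 arrays of lgl27S3/lglE2S31 larvae at day 4, which carry a pair of null alleles of lethal giant larvae (lgl), and 2 arrays of FRT82B larvae at day 0. Each array held RNA pooled from many dissected complexes (20 pairs, by the design text), the labels call the arrays biological replicates, and a further FRT82B array was set aside by the submitters for its quality. The text of the study names another control strain, but FRT82B is used here as on the labels. The groups differ in genotype and in age at once, which cannot be told apart, and in such bulk samples neither can fewer cells of a type and less RNA per cell.

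The transcript of the mutated gene, l(2)gl, lay at 7.74 and 6.74 in FRT82B and at 2.44, 2.40 and 2.24 in lgl, lower in every array of the mutant genotype. Genes that define the labelled tissue were present on every array, with elav, of neurons, at 8.83 to 10.29 and repo, of glia, at 7.66 to 8.89. Of the eye disc genes dac lay at 7.73 to 8.95, and gl at 3.23 to 4.10, about the median of all probe sets. Markers of several cell types differed between the groups. The neuroblast gene mira was at 8.22 and 9.03 in FRT82B and at 11.07 to 11.21 in lgl. All 4 measured ring gland genes were below both controls on every lgl array (median change -2.57) and 2 of 3 fat body genes were above both controls on every lgl array (median change of the 3 1.48), and the gland gene spok fell to 2.49 to 3.59. The mean level of the ring gland list went from 7.24 and 7.47 to between 3.88 and 4.76, and that of the fat body list 5.42 and 6.72 against 6.90 to 9.18. Among glial genes Gs2 fell, from 10.90 and 10.21 to between 8.35 and 8.71, while repo was above both controls on every lgl array, and the 3 neuron genes had a median change of -0.45. The mean of the 5 neuroblast genes was 7.89 and 8.23 against 9.23 to 9.47, and that of the 4 haemocyte genes at most 4.68 against 5.29 to 6.48. Signs of RNA quality moved in part. The 3′ minus 5′ difference of actin was 0.71 and 0.73 in FRT82B and 0.35 to 0.58 in lgl. That of eIF-4a was 1.68 and 2.01 against 1.41 to 1.65, and that of GAPDH overlapped, at 1.21 and 1.37 against 1.18 to 1.36. The part of these shifts in the values below was not tested.

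All 30 synthetase genes read above the median of all probe sets, and none changed by the criteria of the study. Values are log2 expression, and a change is the lgl mean minus the FRT82B mean. With the brightest probe set of each gene, they lay between 4.63 and 10.18, above the median of all probe sets on every array (3.79 to 3.86). The median of all genes was 5.47 to 5.66, and GluRS-m lay below it on every array. limma called 0 of 30 genes at an adjusted p under 0.05 and a change of at least 1, against 1.05% of all 18769 probe sets, and also 0 with no fold minimum, against 1.63%. At an unadjusted p under 0.05 there were 7 genes (23.3%), against 18.4% of all probe sets and 31.0% of those brighter than the median. Of the 30 genes, 5 were higher in lgl at this p, against 8.49% of all probe sets and 1486 of the 9384 brighter ones. The other 2 of the 7 were lower, against 9.93% of all probe sets and 1422 of the 9384 brighter ones. A change of at least 1 in size was seen in 0 of 30 genes, against 4.34% of all probe sets and 774 of the 9384 brighter ones. Changes ran from -0.57 for ArgRS to 0.83 for HisRS, with a median size of 0.19, against 0.14 over all probe sets and 0.30 over the brighter ones. The 95% interval of the change, from limma and not adjusted for the number of genes, lay within -1 and 1 for 26 of 30 genes. That held for 82.7% of all probe sets and for 6363 of the 9384 brighter ones. The exceptions were HisRS, LysRS, ArgRS and AsnRS-m, whose intervals reached 1.66, 1.11, -1.20 and -1.12.

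The FRT82B arrays were less alike than the lgl arrays, and array 1 stood apart. Across all probe sets the lgl arrays correlated with each other at 0.995 to 0.997 (Pearson's r), FRT82B array 2 with the lgl arrays at 0.982 to 0.984 and with array 1 at 0.981, and array 1 with the lgl arrays at 0.970 to 0.972. The controls differed from each other by more than the groups did in 19 of 30 genes, as in 60.6% of all probe sets. The lgl arrays lay close together, with a median range of 0.13 over the 30 genes and a widest range of 0.34. The deposited value of LeuRS-m was the same on all 3 lgl arrays. In 4 of 30 genes at least 2 lgl arrays shared a value, against 21.4% of all probe sets. Identical values on all 3 lgl arrays occurred in 3.03% of all probe sets.

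**Figure D1:**
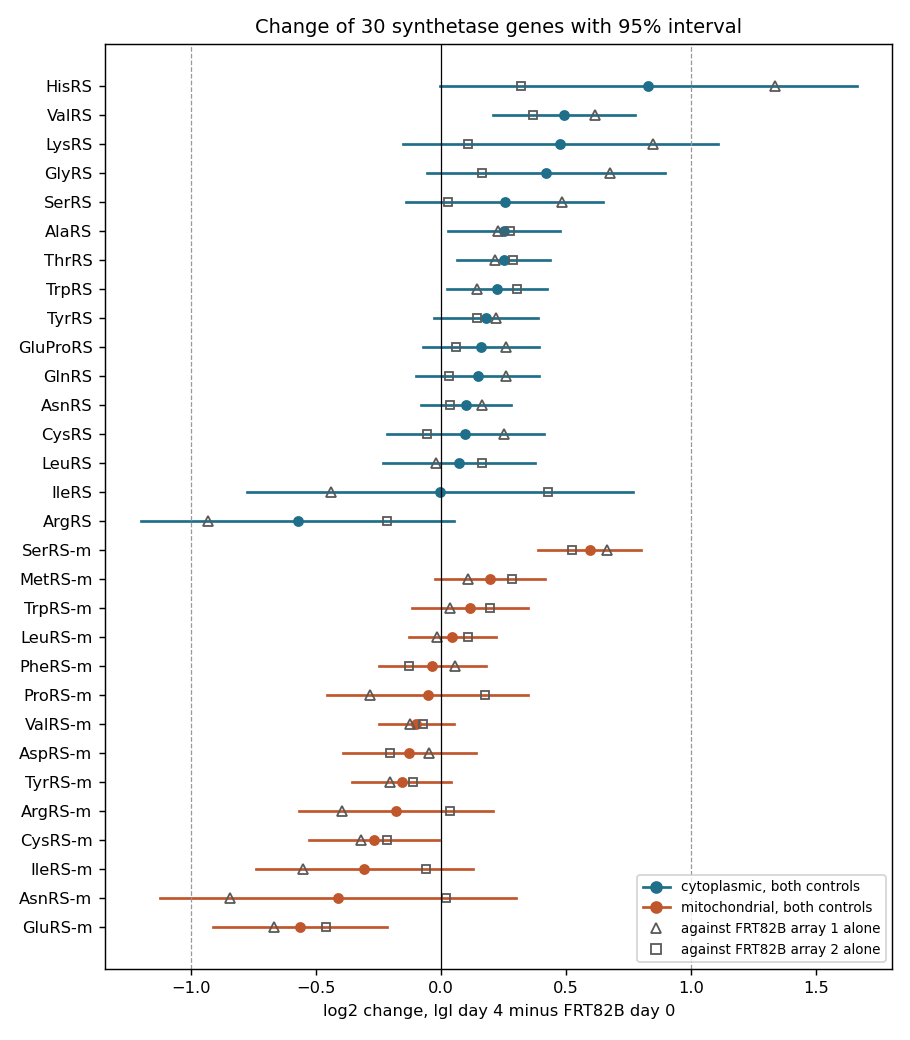
Change of each of the 30 synthetase genes, lgl day 4 minus FRT82B day 0, on the log2 scale. Filled points and lines give the limma estimate and its 95% interval, triangles the lgl mean minus FRT82B array 1 alone and squares minus array 2 alone. 14 of 16 cytoplasmic genes lie above 0 and 10 of 14 mitochondrial genes below it, and every filled point lies between -1 and 1.

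Cytoplasmic and mitochondrial genes lay on different sides of 0, by small amounts. The median change was 0.20 over the 16 cytoplasmic genes and -0.11 over the 14 mitochondrial genes, against -0.03 over all probe sets and 0.01 over the brighter ones. It was above 0 in 14 of 16 cytoplasmic and in 4 of 14 mitochondrial genes, against 41.9% of all probe sets and 51.0% of the brighter ones. In 10 of 16 cytoplasmic genes all lgl arrays lay above both FRT82B arrays, against 14.7% of all probe sets and 24.5% of the brighter ones. In 1 cytoplasmic gene, ArgRS, all lay below. In 4 of 14 mitochondrial genes (28.6%) all lgl arrays lay below both FRT82B arrays, against 20.2% of all probe sets and 23.5% of the brighter ones, and in 2 all lay above. The contrast between compartments is a description of these 30 probe sets, and no test was made over either list.

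The size of this contrast depended on the control array. Against FRT82B array 1 alone the median change was 0.24 for the cytoplasmic and -0.16 for the mitochondrial genes. It was 0.15 and -0.019 with FRT82B array 2 as the sole control. Without FRT82B array 2, all lgl arrays lay below the remaining control in 9 of 14 mitochondrial genes, against 43.3% of all probe sets. Of the cytoplasmic genes 13 of 16 were above 0 with array 1 and 14 of 16 with array 2 as the control, against 40.4% and 45.6% of all probe sets. Of the mitochondrial genes 10 of 14 and 7 of 14 were below 0, against 58.9% and 53.6% of all probe sets. Of the brighter probe sets 51.1% and 47.8% were below 0. The controls also differed from each other, and array 2 minus array 1 had a median of 0.16 in cytoplasmic and of -0.14 in mitochondrial genes.

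HisRS, the histidyl enzyme, had the largest change of the cytoplasmic genes. It read 7.07 and 8.08 in FRT82B and 8.44, 8.34 and 8.43 in lgl. The lgl arrays lay above both controls, but nearer to array 2 than the controls lay to each other. Its change was 0.83 (SE 0.31, adjusted p = 0.273 from limma), or 1.34 and 0.32 against arrays 1 and 2 alone. Without FRT82B array 2 it passed the criteria (adjusted p = 0.0165), the 1 synthetase gene to do so under any alternative, in a fit that called 1306 probe sets in all. LysRS, the lysyl enzyme, had a like profile, at 8.99 and 9.73 in FRT82B and 9.89, 9.90 and 9.73 in lgl. Its change was 0.48 (SE 0.24, adjusted p = 0.391), and the groups overlapped.

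ArgRS, the arginyl enzyme, was the 1 cytoplasmic gene with every lgl array below both controls. It read 9.14 and 8.42 in FRT82B and 8.29, 8.28 and 8.06 in lgl. The change was -0.57 (SE 0.24, adjusted p = 0.310), or -0.93 and -0.22 against arrays 1 and 2 alone.

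HisRS, LysRS and ArgRS are the 3 synthetase genes on the X chromosome. X-linked genes differed between the control arrays as a group, which was seen only after these values were known. Over the 1253 brighter X-linked genes array 2 minus array 1 of FRT82B had a median of 0.21 and the lgl change one of 0.17, while on the arms of chromosomes 2 and 3 the control difference had medians from -0.09 to -0.04 and the lgl change from -0.03 to 0.02. HisRS and LysRS moved in this sense between the controls, by 1.02 and 0.74, and ArgRS against it, by -0.71. The part of the X-wide difference in these values was not tested.

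ValRS, the valyl enzyme, had the smallest p of the cytoplasmic genes. It read 7.24 and 7.48 in FRT82B and 7.87, 7.93 and 7.75 in lgl. The groups were separate and the controls close, with a change of 0.49 (SE 0.11, adjusted p = 0.116), or 0.62 and 0.37 against each control alone. GlyRS, the glycyl enzyme, read 9.14 and 9.65 against 9.77, 9.95 and 9.72, a change of 0.42 (SE 0.18).

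The other cytoplasmic genes differed by less. SerRS, AlaRS and ThrRS had changes of 0.26, 0.25 and 0.25, with adjusted p of 0.434, 0.225 and 0.175. ThrRS, at 9.92 and 9.85 against 10.18, 10.16 and 10.06, and AlaRS, at 8.22 and 8.17 against 8.45, 8.55 and 8.34, had control arrays within 0.07 and 0.05 of each other, and their lgl arrays lay above both. TyrRS (0.18), GluProRS, the fused enzyme for glutamate and proline (0.16), GlnRS (0.15), AsnRS (0.10), CysRS (0.10) and LeuRS (0.07) followed. IleRS had a change of -0.0043 in the mean, which hides controls on either side of the lgl arrays, at 9.85 and 8.98 against 9.49, 9.54 and 9.20.

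TrpRS was measured by 3 probe sets that did not agree in direction. The brightest, used above, read 8.42 and 8.26 in FRT82B and 8.60, 8.55 and 8.55 in lgl, a change of 0.23 (SE 0.08, adjusted p = 0.228). Another read 7.90 and 7.71 against 7.97, 8.01 and 7.91, a change of 0.16. The dimmest lay below the median of its array, at 3.37 to 3.61, with a change of -0.12.

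**Figure D2:**
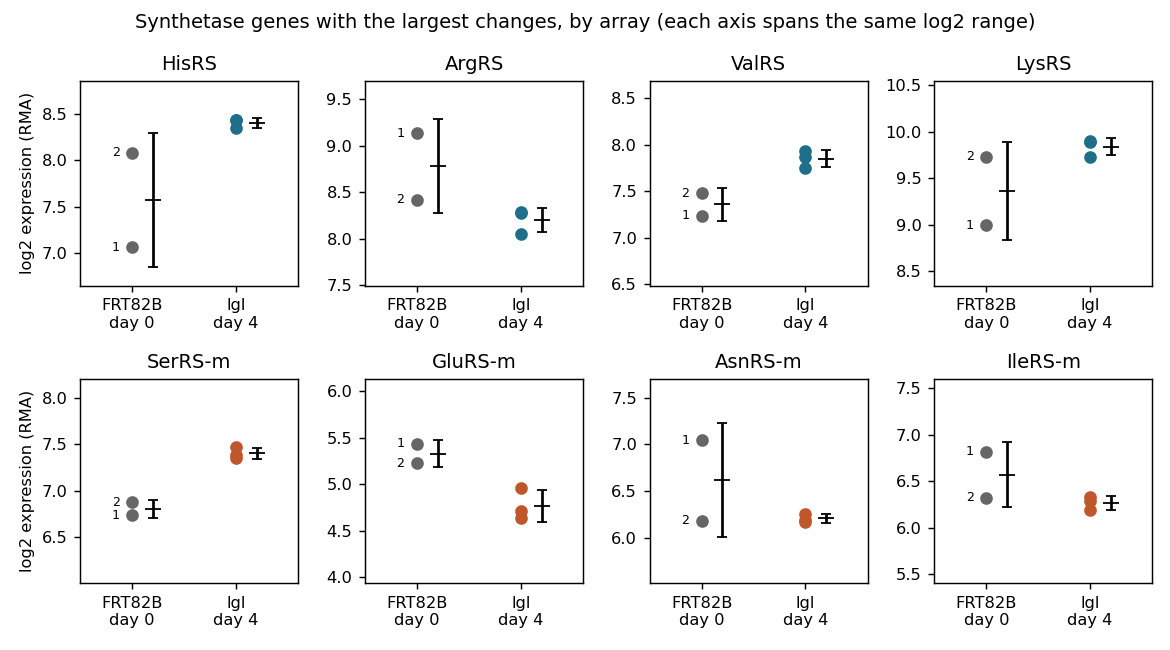
log2 expression of the 4 cytoplasmic (upper row) and 4 mitochondrial genes (lower row) with the largest changes, on each array. Points are arrays, with the FRT82B array number beside them, and bars the mean ± SD over 2 FRT82B or 3 lgl arrays. HisRS spans 7.07 to 8.08 in FRT82B and AsnRS-m 7.05 to 6.18, while SerRS-m and GluRS-m show separate groups with close controls.

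SerRS-m, the mitochondrial seryl enzyme, had the smallest adjusted p of all 30 genes, though not the largest change. It read 6.74 and 6.88 in FRT82B and 7.47, 7.39 and 7.35 in lgl. The groups did not overlap and the change was larger than the distance between the controls. It came to 0.60 (SE 0.08, adjusted p = 0.0516 from limma, 95% interval 0.39 to 0.80), or 1.51 times, and 0.67 and 0.53 against each control alone. It passed the adjusted p, though not the fold minimum, when the values were normalised again by quantiles or centred on array medians. Other settings with both controls raised the adjusted p from limma. It was 0.114 with the trended variance prior, 0.202 with array weights and 0.368 with the replicate block. With an lgl array left out it was 0.181 to 0.250. With 1 control array it depended on which was kept, higher without array 1 and lower without array 2. The direction of SerRS-m was the opposite of that of most mitochondrial genes. Slimp, the insect mitochondrial protein derived from a seryl enzyme that binds SerRS-m in flies, read 6.81 and 5.78 in FRT82B and 5.57, 5.82 and 5.81 in lgl, a change of -0.56 (SE 0.33, adjusted p = 0.436) with overlapping groups, and without FRT82B array 2 it was -1.08 and passed the criteria.

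GluRS-m, the mitochondrial glutamyl enzyme, was lower in lgl. It read 5.43 and 5.22 in FRT82B and 4.63, 4.95 and 4.71 in lgl, so that all lgl arrays were below both controls. The change was -0.56 (SE 0.13, adjusted p = 0.129), or -0.67 and -0.46 against each control alone. GluRS-m is also the gene next to TyrRS on arm 3L, the 1 pair of neighbours among the 30 genes. TyrRS read 8.52 and 8.60 against 8.72, 8.83 and 8.66, so the neighbours differed in sign.

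AsnRS-m and IleRS-m, the mitochondrial enzymes for asparagine and isoleucine, rested on FRT82B array 1. AsnRS-m read 7.05 and 6.18 in FRT82B and 6.17, 6.26 and 6.19 in lgl, with a change of -0.41 (SE 0.27, adjusted p = 0.466) that was -0.84 with array 1 and 0.022 with array 2 as the sole control. IleRS-m read 6.82 and 6.32 against 6.28, 6.32 and 6.19, with a change of -0.31 (SE 0.16, adjusted p = 0.416). In both genes the lgl arrays overlapped with array 2.

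Among the other mitochondrial genes CysRS-m read 7.19 and 7.09 against 6.91, 6.98 and 6.74, a change of -0.27 (SE 0.10, adjusted p = 0.259) with separate groups. TyrRS-m (-0.16) and ValRS-m (-0.10) were also below both controls on every lgl array, by less. ArgRS-m (-0.18), AspRS-m (-0.13), ProRS-m (-0.05) and PheRS-m (-0.03) had overlapping groups. MetRS-m (0.20) was above both controls on every lgl array, at 5.57 and 5.39 against 5.64, 5.74 and 5.64, and TrpRS-m (0.12) and LeuRS-m (0.05) overlapped.

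For 9 amino acids both enzymes were measured, which allows them to be compared within an array. The level difference of a pair depends on the probes as well as on the mRNA, so only its change between groups is described. The cytoplasmic minus mitochondrial difference was larger in lgl for 7 amino acids and smaller for 2, with a median change of 0.30. The groups did not overlap in 6 of the 9, of which 4 were larger in lgl. The like share was not computed for other pairs of genes. Among single probe sets, all lgl arrays lay above both controls in 14.7% and below both in 20.2%. Of the brighter probe sets these shares were 24.5% and 23.5%. Valine had the largest change, with differences of 1.47 and 1.77 in FRT82B and 2.21, 2.29 and 2.13 in lgl, a change of 0.59. Asparagine followed at 0.51, but it rested on array 1, with 2.02 and 3.02 in FRT82B and 3.05, 2.97 and 3.07 in lgl. Cysteine (0.37) and tyrosine (0.34) were separate between groups, isoleucine (0.30) and leucine (0.03) overlapped, and tryptophan was separate by a small step of 0.11.

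Arginine and serine went the other way. For arginine the difference was 2.73 and 2.45 in FRT82B and 2.24, 2.23 and 2.11 in lgl, a change of -0.39, with both enzymes lower in lgl and ArgRS more so. For serine it was 2.34 and 2.66 in FRT82B and 2.10, 2.19 and 2.19 in lgl, a change of -0.34, with both enzymes higher and SerRS-m more so. No pair changed by 1 or more. With 1 control array the median over the 9 amino acids was 0.11, whether array 1 or array 2 was left out.

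**Figure D3:**
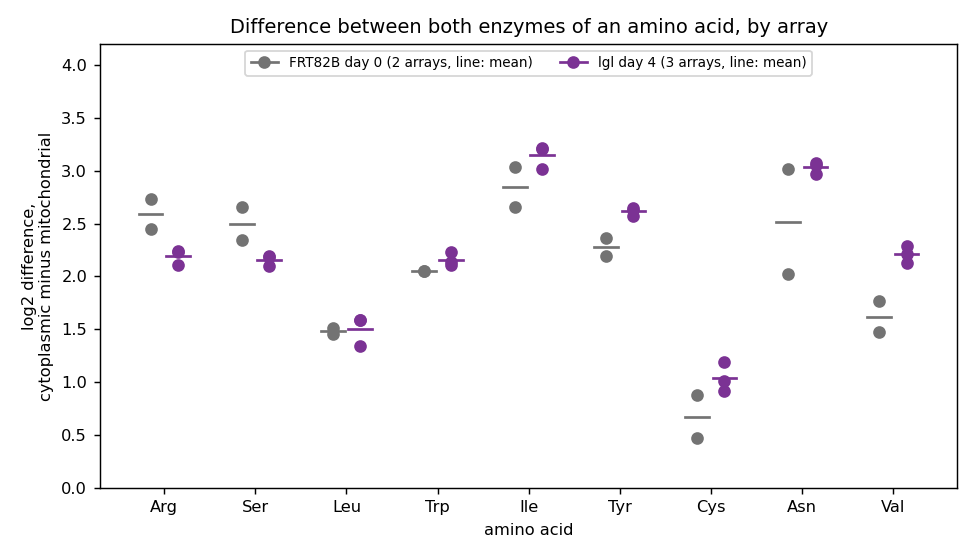
Cytoplasmic minus mitochondrial log2 expression for the 9 amino acids with both enzymes, on each array (points) and as group means (lines), ordered by the change from FRT82B day 0 to lgl day 4. Arg and Ser are lower in lgl and Val highest above its controls (0.59), while the FRT82B points of Asn lie at 2.02 and 3.02.

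The genes were also set out by enzyme class and by the multisynthetase complex, groupings added after the values had been seen and given without a test. Among cytoplasmic enzymes all 7 of class II (LysRS, HisRS, GlyRS, SerRS, AlaRS, ThrRS and AsnRS) had changes above 0, with a median of 0.26, and in 6 of them the lgl arrays lay above both controls. Of the 8 of class I, 6 were above 0, with a median of 0.12, and 3 had all lgl arrays above both controls. That holds for 14.7% of all probe sets and 24.5% of the brighter ones. The class II genes also differed more between the controls, where array 2 was higher by a median of 0.46, so that their median was 0.48 with array 1 as the sole control and 0.16 with array 2. For class I it was 0.18 and 0.15. Among mitochondrial enzymes the medians were -0.16 over 9 of class I and -0.05 over 5 of class II, a class that holds both SerRS-m and AsnRS-m.

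Of the cytoplasmic enzymes 6 (ArgRS, GlnRS, GluProRS, IleRS, LeuRS and LysRS) belong to the multisynthetase complex in mammals. Their median change was 0.11, in 1 of the 6 (GluProRS) all lgl arrays lay above both controls, and in all 6 the controls differed by more than the groups, against 60.6% of all probe sets. The 10 enzymes outside it had a median of 0.25, all 10 were above 0, and in 9 the lgl arrays lay above both controls, against 14.7% of all probe sets and 24.5% of the brighter ones.

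**Figure D4:**
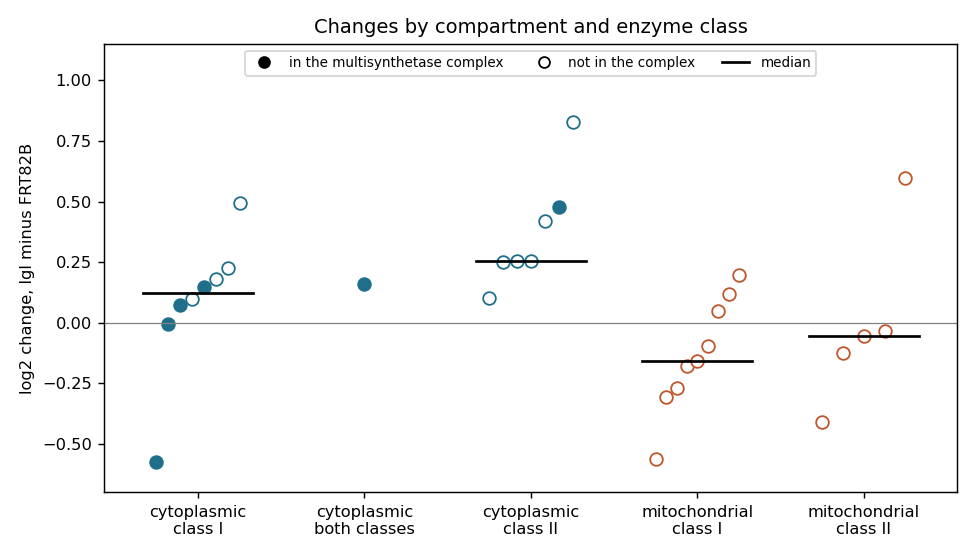
log2 change of the 30 genes by compartment and enzyme class, with filled points for enzymes of the mammalian multisynthetase complex and lines for the median of each class. The 7 cytoplasmic class II genes lie between 0.10 and 0.83, and GluProRS, which joins both classes, stands alone at 0.16.

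The partners of the synthetases gave no calls either. limma called 0 of 28 partner genes at the criteria above, with 7 (25%) at an unadjusted p under 0.05, against 18.4% of all probe sets and 31.0% of the brighter ones, and the adjusted p alone was passed by 0. Without FRT82B array 2 the calls among them were 4. In 14 of 28 (50%) the sign of the change depended on the control array, against 29.2% of all probe sets. The scaffold genes of the complex had small changes between groups. AIMP2 read 9.97 and 9.88 in FRT82B and 9.81, 9.91 and 10.14 in lgl, and AIMP1 and AIMP3 had changes of 0.13 and -0.06, whose signs turned with the control array. The subunits of the cytoplasmic phenylalanyl enzyme, whose names the rule did not take, had changes of 0.24 for alpha-PheRS, at 7.44 and 8.14 against 7.99 to 8.11, and of -0.17 for beta-PheRS, at 7.82 and 8.11 against 7.69 to 7.88. alpha-PheRS is X-linked too.

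Some elongation factors bring the charged tRNA to the ribosome. The 7 elongation factor genes measured, of several kinds, had a median change of -0.11. It turned to 0.25 without FRT82B array 2, and the mitochondrial ones were not alike. mEFTu2, of the kind that carries charged tRNA in mitochondria, read 7.10 and 7.55 against 7.78, 7.86 and 7.92, a change of 0.53 (SE 0.15, adjusted p = 0.182). mEFTs, the factor that recharges it, read 8.28 and 8.31 against 8.68, 8.76 and 8.89, a change of 0.48 (SE 0.08, adjusted p = 0.0812). Both were separate between groups and higher in lgl, unlike most mitochondrial synthetase genes, while mEFTu1 and mEFG1 had changes of -0.11 and -0.15 with overlapping groups. GatB and GatA, of the amidotransferase that completes glutaminyl-tRNA in mitochondria, had changes of -0.26 and 0.12, and their list of 3 a median of -0.10. That median was 0.22 without FRT82B array 1 and -0.53 without array 2, and GatB was at 0.047 without array 1.

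The genes of amino acid and stress control had a median change of 0.21 over 7. crc, the fly counterpart of ATF4, was bright on every array, at 11.61 and 11.01 in FRT82B and 11.33, 11.38 and 11.33 in lgl, with a change of 0.04 (SE 0.19), between the controls. Gcn2 and PEK, the kinases that act through crc, had changes of 0.21 and 0.60, and PEK lay above both controls on every lgl array (6.97 and 7.58 against 7.93, 7.96 and 7.73). AsnS, an asparagine synthetase, had a change of 0.43 (SE 0.24), with all lgl arrays above both controls. The largest change of any partner was that of aay, a phosphoserine phosphatase of serine synthesis, at 7.93 and 7.10 against 6.22, 6.17 and 5.88, or -1.42 (SE 0.28, adjusted p = 0.0985). Shmt, which turns serine into glycine, read 8.26 and 8.92 against 9.05, 9.14 and 9.21, a change of 0.55 (SE 0.21, adjusted p = 0.282).

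A list drawn up for tRNA transport and modification had 5 measured genes, and whether Clbn acts in either was not checked. Clbn read 8.21 and 7.42 against 6.96 to 7.05 (change -0.81, SE 0.25, adjusted p = 0.199). CG16868 read 7.22 and 7.12 against 7.76, 7.82 and 7.58 (change 0.55, SE 0.10, adjusted p = 0.0859). The groups were separate in both, and in opposite directions. The list's median was 0.23.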

How the data were processed

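The values deposited by the authors are log2 expression after RMA (background correction, normalisation and summary of each probe set). For the upstream software, versions are not given in the sources used here. Since RMA gives arrays like distributions, a shift common to most transcripts is lost. The number of arrays limits the precision.

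Arrays were grouped by their titles (2 FRT82B, 3 lgl). After removal of 183 control probe sets, 18769 were tested. Of these, 13647 had 1 gene symbol in the platform annotation, 402 had several and 4720 were unnamed here. Symbols were updated through gene identifiers (13544 matched), and the chromosome arms of genes came from the reference genes by the same identifiers. Probe sets were not placed by coordinates, since the reference assembly (Release 6) was not tied to the array. Per gene the probe set with the highest mean was used.

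Groups were compared with limma 3.58.1 (lmFit, eBayes) in R 4.3.3, with p adjusted by Benjamini-Hochberg across the 18769, and called where the adjusted p was under 0.05 and the change at least 1 in size, after the study's methods. The procedure was run on simulated data with the same variance for all arrays of a probe set. The FRT82B arrays here were less alike than the lgl arrays, which that simulation does not cover.

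The members and lists were chosen with earlier results of these data known. Every member was named; values by array were given for members past the adjusted p, the 4 of each compartment with the largest change, genes whose probe sets differ in sign, and pairs of enzymes, and others were added after their values were seen. Alternatives were another normalisation, median centring, brighter probe sets, a trended variance prior, weighted arrays, a block for the replicate number, each array left out, a lower fold minimum, other probe sets of a gene, and the cytoplasmic list without GlyRS, HisRS and LysRS. Where a single FRT82B array remained, its spread was taken from that of the mutant arrays. The labels name the arrays biological replicates, and nothing further ties them to separate cultures.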

Additional observations from a re-analysis of the deposited data

How the results depend on the processing

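Over all probe sets 197 were called. The count was 395 among brighter probe sets, 12 with array weights, 302 at a fold minimum of 0.5 and 0 to 1306 with 1 array left out (71 without FRT82B array 1, 1306 without FRT82B array 2, 0 without each of the lgl arrays in turn). Synthetase genes called numbered 0 to 1 with 1 array left out, and those past the adjusted p alone 0 to 10, each maximum without FRT82B array 2. Past the adjusted p alone there was 1 after quantile normalisation and 1 after median centring. Partner genes called numbered 1 among brighter probe sets (aay) and 0 to 4 with 1 array left out.

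The cytoplasmic median kept its sign and stayed within 0.078 of its main value under every alternative. That margin is the SD of array medians pooled over the groups, and the difference between the controls enters it. With 1 array left out the mitochondrial median ran from -0.16 to -0.019, the elongation factor median from -0.11 to 0.25, the amidotransferase and formyltransferase median from -0.53 to 0.22, the amino acid control median from 0.072 to 0.29, the tRNA list median from 0.15 to 0.26, and the median over amino acid pairs from 0.11 to 0.29. Mitochondrial genes with all lgl arrays lowest numbered 4 to 9, the latter without FRT82B array 2, where the same held for 43.3% of all probe sets. After quantile normalisation the pairs' median was 0.40 and that of the tRNA list 0.15. After median centring the amino acid control and tRNA lists had medians of 0.25 and 0.28.

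IleRS changed sign, to 0.073 after quantile normalisation, 0.045 after centring and 0.039 with array weights. AIMP2 was -0.018 with array weights. LeuRS-m was -0.032 after quantile normalisation and PheRS-m 0.015 after centring. With 1 array left out, the synthetase and partner genes whose sign turned ran as follows: CysRS from -0.055 to 0.25, LeuRS from -0.018 to 0.16, IleRS from -0.44 to 0.43, LeuRS-m from -0.017 to 0.11, PheRS-m from -0.13 to 0.059, ProRS-m from -0.28 to 0.18, ArgRS-m from -0.40 to 0.037, AsnRS-m from -0.84 to 0.022, mEFTu1 from -0.51 to 0.29, mEFG1 from -0.44 to 0.15, GatB from -0.57 to 0.047, alpha-PheRS from -0.10 to 0.59, eEF1alpha2 from -0.42 to 0.19, AIMP1 from -0.096 to 0.35, AIMP2 from -0.07 to 0.097, AIMP3 from -0.23 to 0.12, CG1750 from -0.53 to 0.33, crc from -0.26 to 0.34, Sesn from -0.36 to 0.62, Mt2 from -0.61 to 0.15, Nsun2 from -0.044 to 1.03 and eEF1gamma from -0.0087 to 0.25. The causes were not tested.

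Replicate numbers 1 and 2 occur in both groups, and deviations of same-numbered arrays correlated at 0.03 and 0.07. The deviations of the 2 controls mirror each other, so these values cannot tell whether same-numbered arrays share more than a number. With the replicate number as a block, in which lgl array 3 has no partner, 0 probe sets were called, l(2)gl had a change of -4.82 (limma adjusted p = 0.308), IleRS was at 0.10, AIMP2 at -0.070 and the amino acid control median at 0.28. The l(2)gl call was also lost when each of the lgl arrays in turn was left out, while the change stayed at -4.92 to -4.82 (-4.88 with all arrays).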
